A study of Mus musculus with 7 samples.

Results

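Fatty acid oxidation in mitochondria was described through 10 genes, which encode 8 enzymes and 2 regulators of their transcription. The genes were chosen by symbol (Cpt1a, Cpt2, Acadvl, Acadl, Acadm, Hadha, Hadhb, Acaa2, Ppara and Ppargc1a), and all 10 were found among the 26558 named genes of the expression table, each on a single entry. Long-chain fatty acids enter mitochondria as carnitine esters and are then shortened in repeated rounds of dehydrogenation, hydration, a second dehydrogenation and thiolysis, each round giving acetyl-CoA. Endothelial cells take up fatty acids and burn part of them, while the kidney tubule, above all the proximal tubule and the thick ascending limb, relies heavily on this pathway for energy. The nuclear receptor PPAR-alpha (Ppara) and its coactivator PGC-1 alpha (Ppargc1a) are known to drive transcription of these enzymes.

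RNA sequencing was done on endothelial cells from kidneys of male C57BL/6 mice aged 3 months, captured with magnetic beads against Cd31 and lysed without culture. The 4 mutant libraries came from Hoxb7-Cre-GFP mice homozygous for a loxP-flanked Vhlh allele, and the 3 wildtype libraries from mice with the Hoxb7-Cre-GFP transgene and no floxed allele named, so the transgene is shared by every library. The Hoxb7 promoter is active in the ureteric bud lineage, which forms the collecting duct, so the gene was lost in tubule cells and the captured cells were not its target. Vhlh encodes the von Hippel-Lindau protein, which marks hypoxia-inducible factors (HIF) for destruction. Whether each library is a separate mouse is not stated, so p-values measure the spread between libraries.

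Values were FPKM, read fragments scaled by transcript length and library size, a scale that allows levels of different genes to be compared. Vhl was listed at 6.71 to 8.24 in the wildtype and 5.57 to 6.41 in the mutant libraries (limma adjusted p = 0.123), which is no check of a deletion made in tubule cells. All 25 pan-endothelial markers passed the filter on low values, but the isolates also held much tubule RNA. Summed over 25 proximal tubule markers, the level was 3535 to 6598 in wildtype and 1676 to 9139 in mutant libraries. The single gene Kap, at 2378 to 4303 and 231 to 6791, weighed heavily in these sums. Over 20 markers of the loop, distal tubule and collecting duct the summed level was 1653 to 1864 and 1886 to 2953. Most of it was Umod, at 1055 to 1279 and 1371 to 2179. The mean log2(FPKM + 1) of these 20 markers overlapped between groups, at 4.27 to 4.44 and 4.23 to 4.89. Over 23 macrophage and dendritic cell markers the summed level was 2993 to 4783 and 827 to 1854. No gene of these 3 lists was at 0 in any library. Wildtype 3 stood apart with the lowest pan-endothelial sum, 3041 against 3882 and 4546, and the highest proximal tubule sum of its group, and mutant 4 held the highest proximal tubule sum of all.

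Of the 10 genes, 5 rose (Acadl, Hadha, Hadhb, Acaa2 and Ppargc1a), 0 fell (0 at an unadjusted p under 0.05) and 5 were not called, by limma on log2(FPKM + 1) with Benjamini-Hochberg adjustment over 13420 tested genes. Across all tested genes 8.76% were called higher and 7.34% lower. The log2 fold changes ran from 0.10 to 0.49 with a median of 0.36, against a median of 0.04 over all tested genes and of 0.35 over the 25 pan-endothelial markers. For 7 of the 10 genes every mutant value lay above every wildtype value, a pattern met by 18.9% of tested genes. In isolates of mixed cells, more cells of a type and more RNA per cell cannot be told apart.

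In wildtype libraries the enzyme levels spanned 13.4 to 68.9 FPKM by gene mean, and the regulators were lower, at 5.05 for Ppargc1a and 1.99 for Ppara. Acadm was the highest in all 3 wildtype libraries. In the mutant group it was the highest in mutant 4 alone, and Hadhb in mutant 1, mutant 2 and mutant 3. The neighbours Acaa2, Acadl, Acadvl and Cpt1a could not be ordered, because each adjacent pair swapped places in at least 1 of the 7 libraries. Below them Hadha, Cpt2, Ppargc1a and Ppara kept this descending order in 7 of 7 libraries. Added over the 10 genes, the level was 329.2, 328.5 and 396.4 FPKM in wildtype 1 to 3 and 447.8, 404.2, 425.8 and 510.5 in mutant 1 to 4.

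**Figure D1:**
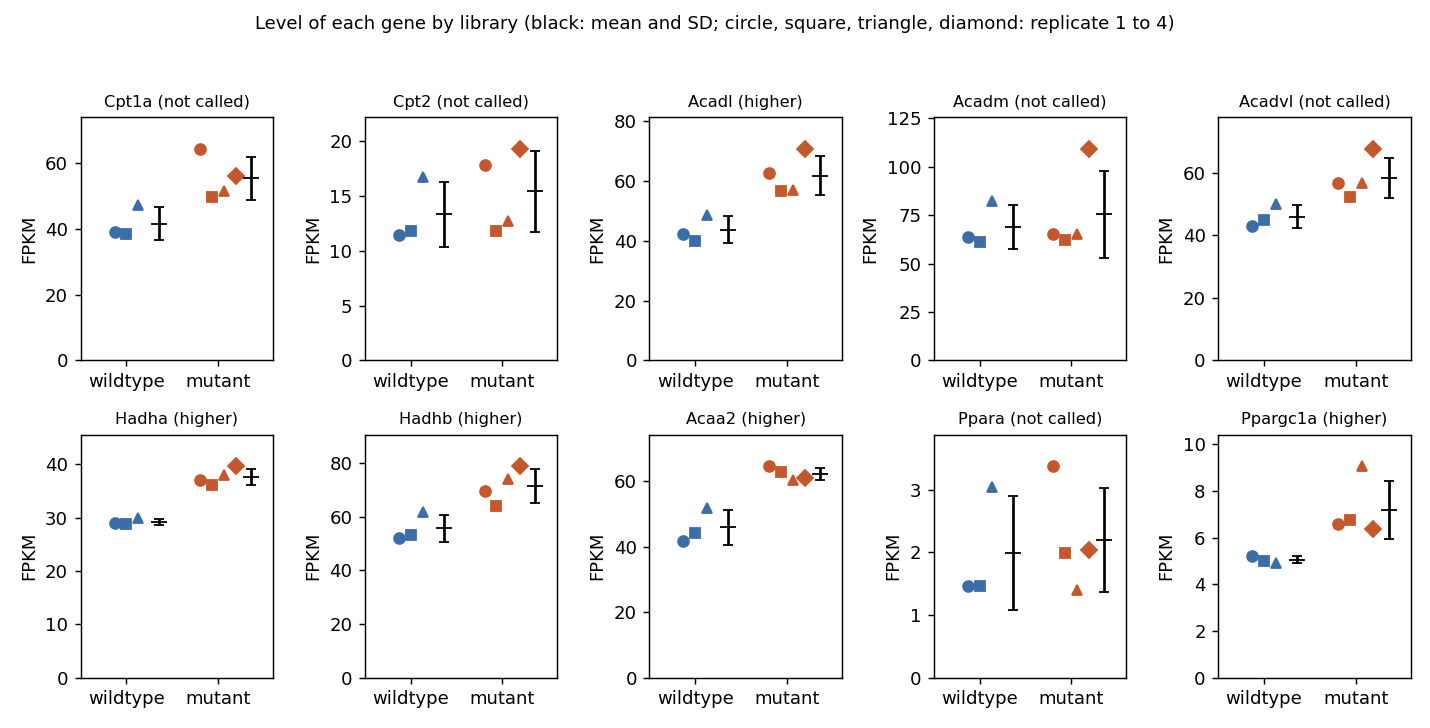
FPKM of each of the 10 genes in the 3 wildtype (blue) and 4 mutant (orange) libraries, with the group mean and SD in black and each y axis starting at 0. Groups do not overlap for 7 genes, and Acadm, Cpt2 and Ppara overlap. Wildtype 3 is the highest wildtype library for every gene but Ppargc1a.

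The carnitine shuttle brings acyl groups across the mitochondrial membranes. Cpt1a, the liver-type carnitine palmitoyltransferase of the outer membrane and the step that malonyl-CoA blocks, was at 38.9, 38.4 and 47.3 FPKM in wildtype 1 to 3 and at 64.2, 49.6, 51.3 and 55.9 in mutant 1 to 4. The lowest mutant value was above the highest wildtype value. The means were 41.5 ± 5.01 (SD, n = 3) and 55.2 ± 6.51 (SD, n = 4), and the difference of 0.40 on the log2 scale (standard error 0.117) was not called by limma (adjusted p = 0.0538). Cpt2, its partner on the inner membrane, was at 11.5, 11.8 and 16.8 in wildtype and at 17.9, 11.8, 12.7 and 19.3 in mutant libraries. The groups overlapped, with mutant 2 and mutant 3 near wildtype 1 and wildtype 2, and the gene was not called (log2 fold change 0.19, adjusted p = 0.568). Slc25a20, the carrier that exchanges acylcarnitine for carnitine, rose from 12.5 ± 0.704 (SD, n = 3) to 17.7 ± 1.88 (SD, n = 4), by 0.46 on the log2 scale (adjusted p = 0.0168). It missed the threshold when wildtype 1 or wildtype 2 was left out (adjusted p up to 0.0762).

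Of the Cpt1 isoforms, Cpt1a made up most of the level. Its share of the summed FPKM of Cpt1a, the muscle-type Cpt1b and the neuronal Cpt1c was 80.6, 78.0 and 84.3% in wildtype 1 to 3 and 82.7, 81.7, 74.7 and 81.0% in mutant 1 to 4. The ranges overlapped, and no difference was detected (exact permutation test, 35 splits, two-sided, adjusted p = 1.00 over 3 ratios, smallest possible unadjusted p = 0.0286). Cpt1c rose from 2.34 ± 0.340 to 3.60 ± 0.0391 FPKM (log2 fold change 0.47, adjusted p = 0.0131). Cpt1b was at 7.04, 8.14 and 6.78 in wildtype and at 9.86, 7.55, 13.8 and 9.52 in mutant libraries, with mutant 3 the highest, and was not called (adjusted p = 0.152).

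The acyl-CoA dehydrogenases take the first step of each round and differ in the chain length they accept. Acadl, the long-chain enzyme, was at 42.5, 40.0 and 48.7 FPKM in wildtype 1 to 3 and at 62.6, 56.8, 57.1 and 70.7 in mutant 1 to 4. The groups did not overlap, and mutant 4 was the highest. Acadl rose 1.41-fold by group means, from 43.7 ± 4.47 (SD, n = 3) to 61.8 ± 6.53 (SD, n = 4), by 0.49 on the log2 scale (standard error 0.107, adjusted p = 0.0217). It missed the threshold when wildtype 1, wildtype 2 or mutant 1 was left out (adjusted p up to 0.1002).

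Acadvl, the very-long-chain enzyme bound to the inner membrane, was at 43.0, 44.8 and 50.1 FPKM in wildtype and at 56.6, 52.4, 56.6 and 67.6 in mutant libraries. The groups did not overlap, but the log2 fold change of 0.33 (standard error 0.104) was not called (adjusted p = 0.0680). Acadm, the medium-chain enzyme, was at 63.8, 60.9 and 82.1 in wildtype and at 65.3, 62.1, 65.1 and 109.0 in mutant libraries. Mutant 1 to 3 lay within the wildtype range and mutant 4 far above it, and Acadm was not called (log2 fold change 0.10, standard error 0.210, adjusted p = 0.789). Acads, the short-chain enzyme, was at 20.01, 23.9 and 29.0 in wildtype and at 21.4, 18.4, 21.2 and 28.6 in mutant libraries (log2 fold change -0.12, adjusted p = 0.681). Acadm and Acads were highest in wildtype 3 and mutant 4 within their groups, and so were Acadl, Acadvl, Cpt2, Hadha and Hadhb. Cpt1a, Acaa2 and Ppara were highest in wildtype 3 and mutant 1, and Ppargc1a in wildtype 1 and mutant 3. Wildtype 3 and mutant 4 had the highest proximal tubule marker sums of each group. The part of tubule RNA in these values was not tested. The share of Acadvl in the summed level of the 4 dehydrogenases was 23.9 to 26.4% in wildtype and 24.5 to 28.3% in mutant libraries (exact permutation test, two-sided, adjusted p = 0.514).

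The mitochondrial trifunctional protein carries out the remaining steps for long chains, with the hydratase and second dehydrogenase on the alpha subunit (Hadha) and the thiolase on the beta subunit (Hadhb). Hadha lies on chromosome 5 from 30118304 to 30155162 and Hadhb from 30155248 to 30184593 (mm10, GENCODE M21), on opposite strands and pointing away from each other. Their RefSeq starts are 273 bases apart, so that the promoter windows of the pair, from 250 bases before to 50 after each start, share 228 bases. The Hadhb window is shown because it covers most of the stretch between the starts of 2 genes that rose side by side. It is RefSeq sequence, GRCm38.p6, chr5:30155003-30155302, plus strand, and capitals mark the GC box letters GGGCGG or their reverse complement.
Hadhb: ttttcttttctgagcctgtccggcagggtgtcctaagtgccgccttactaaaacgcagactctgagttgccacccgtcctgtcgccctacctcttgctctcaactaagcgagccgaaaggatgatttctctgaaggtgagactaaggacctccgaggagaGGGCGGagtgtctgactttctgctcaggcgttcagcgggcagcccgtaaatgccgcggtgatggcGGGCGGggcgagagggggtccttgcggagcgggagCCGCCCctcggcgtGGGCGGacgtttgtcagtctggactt
The window holds 4 such matches, and 35.7% of all 32851 promoter windows hold at least 1 on either strand. Of the 9 member windows in the RefSeq table, 6 did. The only match in the Hadha window lies in the shared bases and is also 1 of the 4 Hadhb matches.

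Hadha was at 28.9, 28.9 and 29.9 FPKM in wildtype 1 to 3 and at 37.0, 36.1, 38.0 and 39.6 in mutant 1 to 4. Each group was tight and they lay well apart. Hadha rose 1.29-fold, from 29.2 ± 0.554 (SD, n = 3) to 37.7 ± 1.499 (SD, n = 4), by 0.36 on the log2 scale with a standard error of 0.0657, the smallest among the 10 genes (adjusted p = 0.0114). The call was lost without wildtype 2 (adjusted p = 0.0620) and held without any other single library. Hadhb was at 52.2, 53.1 and 61.6 in wildtype and at 69.6, 64.0, 74.0 and 78.8 in mutant libraries, also without overlap. It too rose 1.29-fold (log2 fold change 0.36, standard error 0.0993, adjusted p = 0.0469), and this call needed every library but mutant 2 (adjusted p up to 0.169).

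The proportion of the subunits was compared within libraries. The ratio of Hadhb to Hadha within a library was 1.80, 1.84 and 2.06 in wildtype and 1.88, 1.77, 1.94 and 1.99 in mutant libraries. The ranges overlapped, with mutant 2 the lowest and wildtype 3 the highest, and no difference was detected (exact permutation test, two-sided, adjusted p = 1.00). This ratio does not depend on scaling between libraries.

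Acaa2, the thiolase that ends each round for medium and short chains, lies on chromosome 18 from 74779197 to 74806208. It was at 41.8, 44.2 and 52.0 FPKM in wildtype 1 to 3 and at 64.6, 62.8, 60.5 and 61.2 in mutant 1 to 4. The mutant values were closely grouped and all above wildtype 3. Acaa2 rose 1.35-fold, from 46.0 ± 5.34 (SD, n = 3) to 62.3 ± 1.83 (SD, n = 4), by 0.43 on the log2 scale (standard error 0.0890, adjusted p = 0.0174). It missed the threshold when wildtype 1 or wildtype 2 was left out (adjusted p up to 0.0832).

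Of 19 other genes of mitochondrial beta-oxidation 3 rose, 0 fell and 16 were not called, with a median log2 fold change of 0.27. Besides Slc25a20 and Cpt1c, the called gene was Eci2, an enoyl-CoA isomerase for unsaturated chains, which rose from 25.7 ± 1.11 to 33.6 ± 0.605 FPKM (log2 fold change 0.38, adjusted p = 0.00859). Eci2 and Cpt1c kept their calls without any single library. Etfdh, which passes the electrons of the dehydrogenases to ubiquinone, was not called (log2 fold change 0.35, adjusted p = 0.0737). The fold changes of the 19 genes ran from -0.12 for Acads to 0.47 for Cpt1c, and 16 were above 0.

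**Figure D2:**
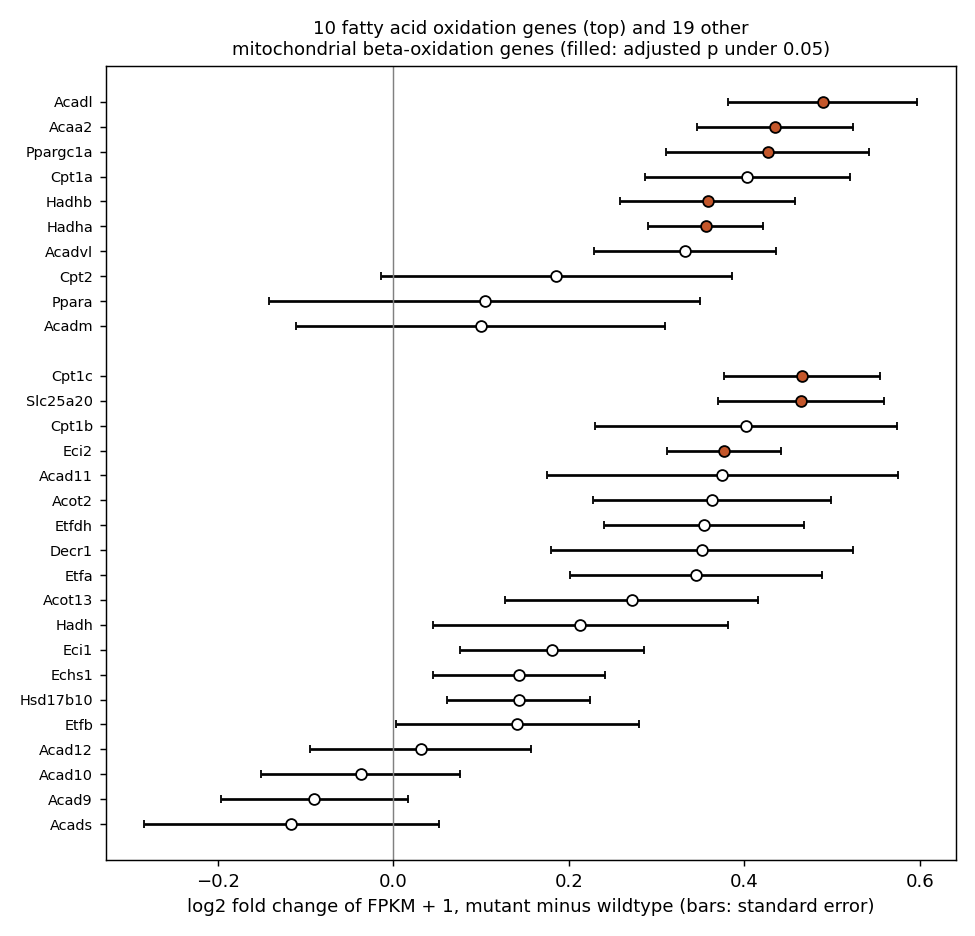
Log2 fold change of FPKM + 1, mutant minus wildtype, with its standard error, for the 10 genes (top block) and 19 other mitochondrial beta-oxidation genes (lower block). Filled points are called, 5 in the top block and 3 in the lower, and no point left of 0 is called.

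Of the regulators Ppargc1a rose and Ppara was not called. Ppargc1a was at 5.22, 4.99 and 4.92 FPKM in wildtype 1 to 3 and at 6.58, 6.74, 9.05 and 6.38 in mutant 1 to 4. All mutant values were above the wildtype values, and mutant 3 was the highest. Ppargc1a rose 1.42-fold by group means, from 5.05 ± 0.155 (SD, n = 3) to 7.19 ± 1.25 (SD, n = 4), by 0.43 on the log2 scale (standard error 0.116, adjusted p = 0.0444). The call needed every library but mutant 3 (adjusted p up to 0.145). Umod and Slc12a1, which mark the thick ascending limb, were likewise highest in mutant 3. Umod was at 1055, 1279 and 1239 in wildtype and at 1700, 1371, 2179 and 1506 in mutant libraries, and Slc12a1 at 174.0 to 198.9 and 212.8 to 290.7. Neither was called (adjusted p = 0.0912 and 0.0560), and the part of this segment in the Ppargc1a level was not tested.

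Ppara was low and uneven, at 1.46, 1.47 and 3.05 FPKM in wildtype and at 3.37, 1.99, 1.40 and 2.04 in mutant libraries. The groups overlapped throughout, and the gene was not called (log2 fold change 0.10, standard error 0.245, adjusted p = 0.813). The FPKM + 1 scale understates changes at such low levels. Hnf4a, a transcription factor of proximal tubule cells named after its values were seen, was also high in wildtype 3, at 26.4 against 11.2 and 12.3. In mutant libraries it was at 19.3, 18.9, 8.49 and 23.6, lowest in mutant 3 as Ppara was. Hnf4a was highest in mutant 4 and Ppara in mutant 1, and the part of tubule RNA in the Ppara level was not tested.

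Of 20 tested partners of PPAR and PGC-1 proteins 3 rose, 0 fell and 17 were not called, with a median log2 fold change of -0.04. Esrrg and Esrrb, orphan receptors that PGC-1 proteins activate, had log2 fold changes of 0.47 and 0.49 (adjusted p = 0.0108 and 0.0375), and Gabpa, a factor for genes of the respiratory chain, of 0.32 (adjusted p = 0.0370). Esrrb was at 3.69, 3.71 and 3.22 FPKM in wildtype and at 5.02, 5.16, 6.97 and 4.62 in mutant libraries, with mutant 3 the highest as for Ppargc1a and Umod. The Esrrg call was lost without wildtype 2, the Gabpa call without any library except mutant 3, and the Esrrb call without any except mutant 3 and mutant 4 (largest adjusted p = 0.0606, 0.148 and 0.120). Sirt1, a deacetylase that acts on PGC-1 alpha, was not called (log2 fold change 0.40, adjusted p = 0.0707).

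Known PPAR-alpha targets moved in both directions. Of 12 tested, 4 rose, 2 fell and 6 were not called, at a median of 0.82 on the log2 scale, and 5 more were under the filter. Fold changes were above 0 for 9 of the 12. Pdk4, the kinase that shuts off pyruvate dehydrogenase and so spares glucose, was at 16.2, 15.6 and 17.2 FPKM in wildtype 1 to 3 and at 52.5, 41.7, 35.5 and 39.8 in mutant 1 to 4. The groups were far apart, a 2.60-fold rise of the mean (log2 fold change 1.31, standard error 0.128, adjusted p = 0.00122), and the call held without any single library.

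Angptl4, a secreted inhibitor of lipoprotein lipase that is also induced by hypoxia, rose by 1.36, and Acot1, a thioesterase of the cytosol, by 1.10 (adjusted p = 0.0308 and 0.0273). Each call held when wildtype 3 or mutant 3 was left out, and missed the threshold when any of the other 5 libraries was (adjusted p up to 0.1245 and 0.113). Acot1 is a close copy of Acot2, and how reads were divided between them is unknown. The 2 genes that fell, named after their values were seen, were Ucp2, a carrier of the inner membrane that is high in macrophages (log2 fold change -0.56, adjusted p = 0.0420), and Cyp4a12a, a fatty acid hydroxylase of the proximal tubule (-0.97, adjusted p = 0.0463). Cyp4a12a was low, at 3.80, 1.63 and 3.36 FPKM in wildtype and at 0.758, 0.880, 0.520 and 1.82 in mutant libraries. Its groups overlapped. The Ucp2 call held only when wildtype 1 or mutant 2 was the library left out, and the Cyp4a12a call only for wildtype 2 or mutant 4 (adjusted p up to 0.121 and 0.140).

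A nuclear receptor half-site, AGGTCA on either strand, was searched in the promoter windows because PPAR and ERR proteins bind elements built from it. It occurred in 16.3% of all 32851 windows and in 3 of the 9 member windows, those of Cpt1a, Acadvl and Acadm, none of which was called. The surrounding bases are shown with the half-site in capitals, each on the strand of its gene (RefSeq, GRCm38.p6), from chr19:3323187-3323232 for Cpt1a, chr11:70015490-70015535 for Acadvl and chr3:153944867-153944893 for Acadm.
Cpt1a: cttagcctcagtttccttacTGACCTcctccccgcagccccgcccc
Acadvl: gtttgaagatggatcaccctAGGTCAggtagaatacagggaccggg
Acadm: gTGACCTtcgggctccggtgacactgg
The Acadm match sits at the far edge of its window, so the sequence before it is cut short. The core letters of a HIF site, ACGTG and GCGTG on either strand, were found in 2 (Ppargc1a and Acadvl) and 5 (Acadm, Cpt2, Hadhb, Acadvl and Ppara) of the 9 windows, against 19.6% and 32.4% of all windows. These matches describe the letters and not binding.

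Acyl-CoA synthetases activate fatty acids before the shuttle. Of 13 acyl-CoA synthetases tested 1 rose, Acsf2 (log2 fold change 0.36, adjusted p = 0.0459, lost without any library except mutant 4), and 0 fell. Of 15 genes of carnitine supply and malonyl-CoA control 2 rose and 0 fell. These were Prkaa1 and Prkag2, subunits of the AMP-activated kinase that inactivates acetyl-CoA carboxylase, with log2 fold changes of 0.30 and 0.25 (adjusted p = 0.0230 and 0.0398). Prkaa1 was no longer called when wildtype 2, wildtype 3, mutant 1 or mutant 2 was left out (adjusted p up to 0.111), and Prkag2 when any single library was (up to 0.129). Acacb, the carboxylase whose malonyl-CoA meets Cpt1a at the outer membrane, was not called (log2 fold change 0.32, adjusted p = 0.0716).

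Peroxisomes shorten chains too long for mitochondria. Of 16 genes of their beta-oxidation 0 rose by limma (1 at an unadjusted p under 0.05), 1 fell and 15 were not called, with a median log2 fold change of 0.09. Of 22 macrophage and dendritic cell markers tested, 15 fell in the same libraries, and their part in these counts was not tested. Of 6 genes of ketone body synthesis and use 0 were called by limma, with 1 at an unadjusted p under 0.05.

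The 5 calls depended on what the libraries were scaled to. Endothelial markers were higher in mutant isolates as well, with 9 of 25 called. After scaling each library on that list the median of the 10 log2 fold changes was -0.005, with a range from -0.27 to 0.13, 4 above 0 and 0 called. The same scaling moved the median of all tested genes from 0.04 to -0.28. Under the deposited scaling, an equal total per library, median-of-ratios and quantile scaling, all 10 fold changes were above 0, and 5, 2, 3 and 4 genes were called.

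Tubule content was compared with the pattern in the same way. With the proximal tubule score as a covariate 7 of the 10 genes were called higher, Cpt1a (adjusted p = 0.0303) and Acadvl (adjusted p = 0.0392) among them, and the median log2 fold change was 0.36. With the score of Umod and Slc12a1, a covariate chosen after seeing the data, 0 were called and the median was 0.33. That score did not overlap between groups, at 8.80 to 8.98 in wildtype and 9.08 to 9.64 in mutant libraries, and the calls over all tested genes fell from 1176 higher and 985 lower to 143 and 195. The log2 fold change of Ppargc1a fell from 0.43 to 0.14 in that fit, and that of Acadl was 0.58.

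**Figure D3:**
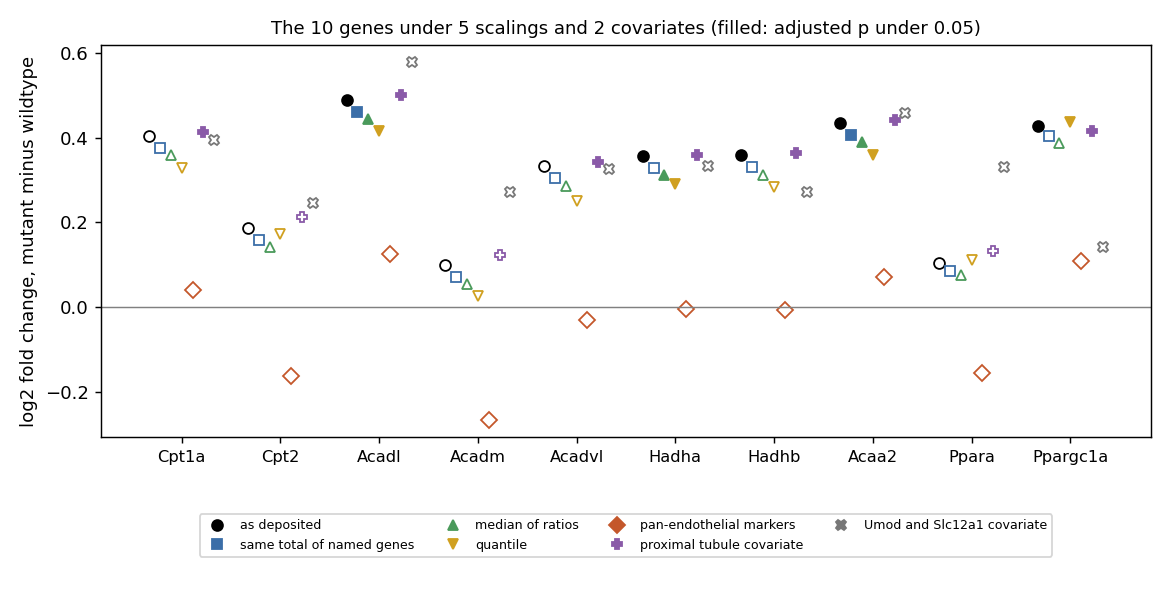
Log2 fold change, mutant minus wildtype, of the 10 genes under 5 scalings and with 2 covariates, with filled symbols where adjusted p was under 0.05. Scaling on pan-endothelial markers (diamonds) brings all 10 genes to between -0.27 and 0.13.

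The list scores, each the mean log2(FPKM + 1) of a list in a library, placed the 10 genes beside the cell markers. The score of the 10 genes was 4.59, 4.58 and 4.87 in wildtype 1 to 3 and 5.06, 4.87, 4.93 and 5.13 in mutant 1 to 4. The lowest mutant score, in mutant 2, was level with that of wildtype 3. The proximal tubule score was highest in the same libraries of each group, wildtype 3 (6.06) and mutant 4 (6.03).

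Of 13 pericyte and smooth muscle markers 3 rose and 1 fell, and of 5 podocyte markers tested 1 rose and 2 fell. Of the 20 markers of the loop, distal tubule and collecting duct 3 rose and 1 fell, and of the 25 proximal tubule markers 1 rose and 0 fell (limma, 1 lower at an unadjusted p under 0.05). Among the 20, Fxyd4 was the gene that fell, from a mean of 32.8 FPKM in wildtype to 15.4 in mutant libraries (adjusted p = 0.0495 by limma). The means of Aqp2, a collecting duct marker, were 79.5 and 35.5, and the groups overlapped (adjusted p = 0.0711 by limma). Unlike these genes, 14 of the 20 markers had fold changes above 0, Umod and Slc12a1 among them.

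**Figure D4:**
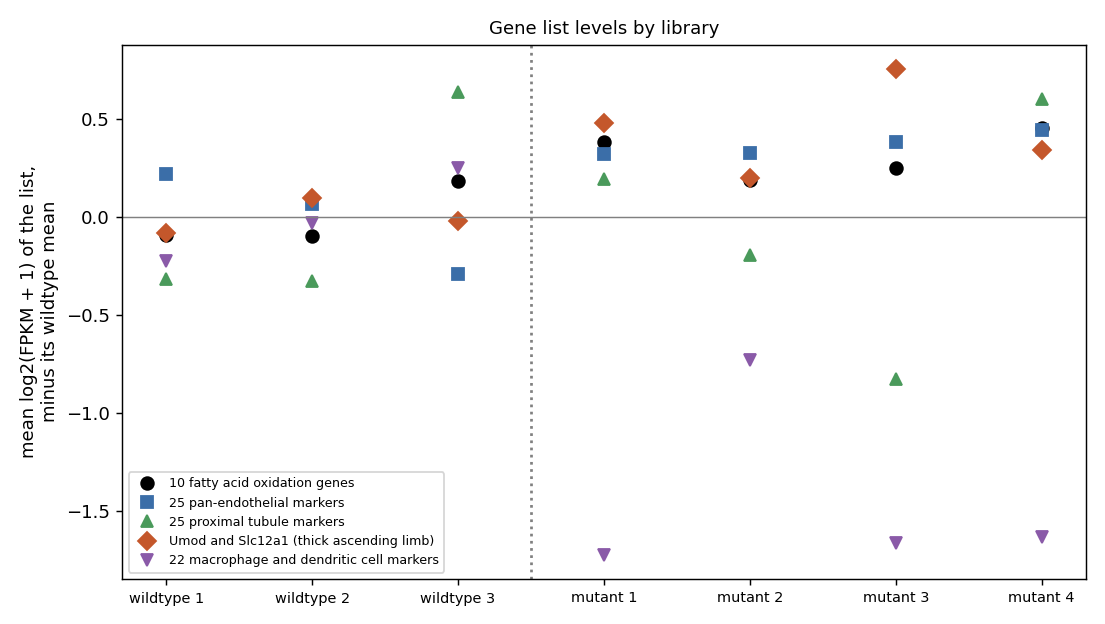
Mean log2(FPKM + 1) of 5 gene lists in each library, minus the wildtype mean of the list. The 10 fatty acid oxidation genes (black), the pan-endothelial markers (blue) and Umod with Slc12a1 (orange) lie above 0 in all 4 mutant libraries. The proximal tubule markers (green) spread widely in both groups, and the macrophage and dendritic cell markers (purple) lie below every wildtype value in the mutants.

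Outside the lists, the 5 genes whose levels ran most like the mean standardised level of the 8 enzymes over the 7 libraries were Sucla2, Pdha1, Wdr72, Pdcd10 and Atp5a1, with Pearson correlations from 0.984 to 0.994. Sucla2 and Pdha1 encode subunits of succinyl-CoA ligase and pyruvate dehydrogenase, and Atp5a1 a subunit of ATP synthase, all in mitochondria. These correlations describe 7 libraries that share the 2 groups. Pdha1 was at 51.8, 50.2 and 61.0 FPKM in wildtype and at 70.3, 62.5, 69.3 and 77.6 in mutant libraries, and was not called (adjusted p = 0.0523). Of the 5 genes 1, Wdr72, was called (log2 fold change 0.50, adjusted p = 0.0420), and its call needed every library but mutant 2.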

How the data were processed

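Libraries were made from poly(A) RNA with a stranded kit, per the labels' protocols. RSEM 1.2.28, Bowtie2 2.3.4.1, Trimmomatic 0.39 and the mm10 build appear in the submitters' processing notes without role or order. The authors deposited FPKM values, per the file headers. For annotation, strand setting and scaling between libraries, the sources used here give nothing. Of 27014 entries, 429 had no name and stayed out of the tests (18.35 to 29.26% of the FPKM per library), and 27 repeated symbols were summed.

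FPKM holds no read totals. Steps among values under 0.3 placed depth at 0.708 (wildtype 3) to 1.0 (wildtype 1) relative to wildtype 1, but 34.3 to 37.9% of entries fell on steps, so counts were not recovered and absolute depth is unknown.

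The limma fit (version 3.58.1, R 4.3.3, empirical Bayes, intensity trend, two-sided) took log2(FPKM + 1) of genes whose mean FPKM reached 1, and adjusted p under 0.05 was a call. Ratios used exact permutation tests. Genes and lists were matched by symbol, with 1 listed marker and 1 listed carnitine gene not analysed here. Members and lists were chosen with earlier results of these data known. Named were the members, Vhl, the 4 genes of each pathway list with the smallest p, the ratio genes, the 3 highest genes of each marker list and the 5 most like the enzymes, and not all marker genes are printed. Some genes that this rule names are not reported here. Same-numbered libraries did not deviate together, so no pairing was used. Alternatives were pseudocounts of 0.1 and 0.5, other filters and scalings, array weights, no trend, covariates, a replicate block and leaving out each library.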

Additional observations from a re-analysis of the deposited data

Results flagged for a closer look

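Within the mutant group, 6 values stood apart from the other 3 mutant libraries by a gap test on the group's range, which chance meets in about 1 of 20 groups. The test was run on the 62 named genes, Acsm3, Slc7a13, 3 ratios and the sum of every list. With so many items, chance alone would flag several. Acadm was at 109.0 FPKM in mutant 4, and without that library its log2 fold change was -0.09. Ppargc1a was at 9.05 in mutant 3. Acsm1 and Acsm3, medium-chain acyl-CoA synthetases, were at 8.45 and 30.6 in mutant 4. Lyz2, a macrophage marker, was at 518 in mutant 2, and the summed level of the macrophage and dendritic cell markers was 1854 there.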

How the results depend on the processing

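Counts of calls moved most. Over all genes, 1176 were higher and 985 lower as deposited, and of the 10 genes 5 were higher. The higher counts were 655 and 2 with no filter on low values, 576 and 2 with an equal total per library, and 3 of the 10 with median-of-ratios scaling. With pan-endothelial scaling 185 genes were higher, 2849 lower and 0 of the 10 called, and with array weights 2258 and 1812 over all genes. Higher calls made up 54.4% of calls as deposited, 41.7% with an equal total, 41.6% with median-of-ratios, 6.1% with pan-endothelial scaling and 38.2% with the block. With the Umod and Slc12a1 score, chosen after seeing the data, 143 were higher, 195 lower and 0 of the 10. Same-numbered libraries had deviation correlations of -0.06, 0.03 and -0.28, so they share only a number. The fit with a replicate block, which drops mutant 4, gave 261 higher, 423 lower and 0 of the 10. Leaving out 1 library gave 321 (wildtype 2) to 1205 (mutant 3) higher, 521 to 1077 lower and 0 (wildtype 2) to 4 of the 10, with 462 higher without wildtype 3, 606 without mutant 1, 694 without mutant 2 and 723 without wildtype 1.

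Under pan-endothelial scaling these log2 fold changes turned below 0: Cpt2 -0.1622, Acadm -0.2654, Acadvl -0.0309, Hadha -0.0036, Hadhb -0.0061, Ppara -0.1564, Etfdh -0.0045, Acss1 -0.0352, Prkaa1 -0.0354, Prkag2 -0.0823, Prkab1 -0.1000, Gabpa -0.0234, Oxct1 -0.1555, Bdh2 -0.3098, Emcn -0.0702, Podxl -0.0979, Pdha1 -0.0058, Pdcd10 -0.1162 and Atp5a1 -0.1366. With the replicate block Acadm was -0.0896 and Bdh2 -0.1155. Bdh2 was -0.0019 with quantile normalization. With the Umod and Slc12a1 score Cpt1b was -0.1872 and Miox 0.4428, and Miox was 0.0925 with array weights. Leaving out 1 library, Acadm ran from -0.0896 to 0.2301, Ppara from -0.0572 to 0.3433, Acads from -0.2429 to 0.0151, Bdh2 from -0.1155 to 0.1788 and Miox from -0.2983 to 0.2166. The log2 difference of the Hadhb to Hadha ratio ran from -0.0393 to 0.0576, of the Cpt1a share from -0.0442 to 0.0152 and of the Acadvl share from 0.0554 to 0.1408. The causes were not tested. Of 1229 values for 62 named genes 976 kept direction and side of the threshold, 178 fell short of it, 41 passed it and 34 changed sign. Genes that were not called and stayed so are among the 976. Of 20 alternatives, Acadl was called in 13, Hadha in 15, Hadhb in 7, Acaa2 in 15 and Ppargc1a in 8. Depth is unknown, which limits what can be read from low genes such as Ppara.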

Other observations

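Medium-chain acyl-CoA synthetases differed in how the mutant libraries compared with the wildtype. Acsm3, named after its values were seen, was at 15.1, 10.8 and 23.7 FPKM in wildtype 1 to 3 and at 1.72, 0.278, 2.96 and 30.6 in mutant 1 to 4, so that mutant 4 was above the wildtype range and the other mutants below it. Acsm1 was at 6.94, 6.90 and 11.3 in wildtype and at 3.47, 2.70, 3.13 and 8.45 in mutant libraries, with mutant 4 inside the wildtype range. Acsm2 did not show the Acsm3 pattern, at 52.5, 46.8 and 80.5 and at 66.2, 51.1, 29.7 and 124.1, nor did Acsm5, at 3.49, 3.44 and 6.96 and at 4.47, 4.08, 2.38 and 6.74. Kap, an androgen-regulated gene of the mouse proximal tubule, was at 2760, 2378 and 4303 in wildtype and at 1507, 231, 1099 and 6791 in mutant libraries. Slc7a13, an amino acid transporter of the last part of the proximal tubule, also named after its values were seen, was at 22.3, 19.03 and 30.6 and at 8.43, 1.53, 8.14 and 41.0. Acsm3, Kap and Slc7a13 were not called (limma adjusted p = 0.223, 0.412 and 0.295). Other proximal tubule markers, also named after their values were seen, were highest in mutant 1 and mutant 2. The sulfate transporter Slc13a1 was at 8.92, 8.36 and 19.04 in wildtype and at 85.3, 85.5, 19.3 and 39.7 in mutant libraries. It was called higher (log2 fold change 2.02, limma adjusted p = 0.0415). Slc5a12, a lactate transporter, was at 4.32, 4.48 and 9.63 and at 14.7, 14.5, 4.78 and 5.63. Slc6a19, a transporter of neutral amino acids, was at 8.16, 8.88 and 20.9 and at 27.6, 23.4, 8.09 and 9.86. Slc5a12 and Slc6a19 were not called (limma adjusted p = 0.433 and 0.646).

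Fatty acid hydroxylases of the Cyp4a family, which PPAR-alpha is known to induce, were uneven. Cyp4a14 was at 3.35, 6.25 and 14.7 in wildtype and at 30.5, 71.8, 12.5 and 40.2 in mutant libraries, with mutant 3 inside the wildtype range (log2 fold change 2.09, adjusted p = 0.0536). Cyp4a10 was at 11.7, 13.2 and 24.0 and at 31.4, 43.0, 14.7 and 54.1 (adjusted p = 0.150). Members of this family are close copies, and how reads were divided among them is unknown.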
